A study of Mus musculus with 57 samples.

Results

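The proton pump of the lysosome and the enzymes that depend on it were followed through 42 genes, picked by name from the 45337 genes of a deposited table of normalised read counts. Of these, 16 encode the vacuolar ATPase and its accessory proteins: 5 of the membrane-embedded V0 sector, 9 of the cytosolic V1 sector and 2 accessory proteins. The other 26 comprise 10 lysosomal proteases, 6 other hydrolases, 3 further luminal proteins, 6 lysosomal membrane proteins and Tfeb, a transcription factor of lysosomal genes. The rule is a list of gene names with no threshold on a value, and all 42 genes were present and passed the filter on low values in each fit.

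RNA came from mouse brain, from corticospinal neurons (CSN), the projection neurons that link the motor cortex to the spinal cord, and from cells that the labels call control cells without further description. Animals were Sod1G86R, a transgenic model of amyotrophic lateral sclerosis that carries a mutant superoxide dismutase, or wild type, and were 30, 60, 90 or 105 days old, where days is a reading of the plain numbers in the sample titles. In that order of ages, CSN gave 3, 4, 4 and 2 libraries from Sod1G86R mice and 4 at each age from wild-type mice. Control cells gave 3, 3, 4 and 4 libraries from Sod1G86R mice and 4, 2, 4 and 4 from wild-type mice. The 57 libraries carry the numbers of 32 animals, 25 of which gave both cell types, and the promoter that drives the transgene, the sorting gate and the number of cells are not given in the labels.

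The vacuolar ATPase hydrolyses ATP in its V1 sector and uses that energy to turn a ring of proteolipid subunits in V0, which carries protons into the lumen. Cathepsins and most other lysosomal hydrolases work at the acidic pH that this pump makes, and neurons, which do not divide, rely on the same pump for lysosomal breakdown and for loading synaptic vesicles with transmitter. TFEB and its relatives bind a short palindrome, the CLEAR element, near the start of many genes for pump subunits and lysosomal enzymes. In bulk libraries such as these, fewer cells of a type and less RNA per cell cannot be told apart.

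The palindrome was looked for in windows that run from 250 bases before to 50 bases after each RefSeq gene start (GRCm38.p6), and 36 of the 42 genes could be matched to a window. The core CACGTG, which reads the same on both strands, was present in 13 of these 36 genes (36.1%), against 2187 of all 27025 genes with a window (8.09%). It was found in 3 of 12 matched pump genes (Atp6v0b, Atp6v0d1 and Atp6v1a) and in 10 of 24 others (Cln3, Ctsa, Ctsd, Ctsf, Ctsl, Gaa, Glb1, Lamp1, Lgmn and Mcoln1). The longer form TCACGTGA, which contains the core, was present in 6 of 36 genes (16.7%), against 1.12% of all genes, and the full 10-base CLEAR palindrome, which contains both, in 1 of 36 (2.78%), against 0.37%. Atp6v1b2, Atp6v1c1, Atp6v1g1, Atp6v1h, Ctsb and Npc1 were not matched. A match describes the letters of the window and shows neither binding nor a cause. The windows below belong to a V0 gene, a V1 gene, a protease and 2 membrane proteins whose values are given later, with CACGTG in capitals: Atp6v0d1 (chr8:105566015-105566314, minus strand), Atp6v1a (chr16:44139210-44139509, minus strand), Ctsa (chr2:164833523-164833822, plus strand), Lamp1 (chr8:13158911-13159210, plus strand) and Mcoln1 (chr8:3500269-3500568, plus strand). Each sequence is written from 5′ to 3′ on the strand of its gene.
Atp6v0d1: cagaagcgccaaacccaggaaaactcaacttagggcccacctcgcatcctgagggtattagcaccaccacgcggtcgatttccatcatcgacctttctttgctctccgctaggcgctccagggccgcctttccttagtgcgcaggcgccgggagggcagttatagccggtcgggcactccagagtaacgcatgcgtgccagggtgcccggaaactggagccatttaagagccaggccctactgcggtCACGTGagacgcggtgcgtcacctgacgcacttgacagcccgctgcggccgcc
Atp6v1a: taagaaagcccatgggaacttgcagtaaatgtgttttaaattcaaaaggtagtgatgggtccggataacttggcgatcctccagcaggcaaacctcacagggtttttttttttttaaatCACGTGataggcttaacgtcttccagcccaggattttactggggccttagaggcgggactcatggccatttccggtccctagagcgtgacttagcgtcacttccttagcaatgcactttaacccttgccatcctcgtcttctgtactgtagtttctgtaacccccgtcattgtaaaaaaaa
Ctsa: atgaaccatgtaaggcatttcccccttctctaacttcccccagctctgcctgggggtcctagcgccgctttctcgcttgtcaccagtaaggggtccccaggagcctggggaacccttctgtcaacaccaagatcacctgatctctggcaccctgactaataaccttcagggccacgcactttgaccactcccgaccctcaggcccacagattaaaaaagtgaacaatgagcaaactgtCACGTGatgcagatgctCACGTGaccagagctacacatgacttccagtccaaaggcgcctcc
Lamp1: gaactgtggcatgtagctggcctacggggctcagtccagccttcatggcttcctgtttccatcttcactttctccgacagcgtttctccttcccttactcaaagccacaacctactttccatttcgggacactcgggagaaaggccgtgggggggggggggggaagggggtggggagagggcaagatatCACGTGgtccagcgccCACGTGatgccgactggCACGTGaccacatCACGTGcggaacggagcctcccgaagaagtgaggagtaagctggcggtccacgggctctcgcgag
Mcoln1: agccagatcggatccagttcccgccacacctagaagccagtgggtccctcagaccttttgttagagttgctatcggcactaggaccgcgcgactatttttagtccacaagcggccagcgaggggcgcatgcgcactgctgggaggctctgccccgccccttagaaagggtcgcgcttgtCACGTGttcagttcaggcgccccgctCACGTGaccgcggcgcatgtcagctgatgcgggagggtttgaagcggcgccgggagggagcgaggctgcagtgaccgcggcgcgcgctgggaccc

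Lamp1 held 4 copies of the core within 61 bases before the start, while Atp6v0d1 and Atp6v1a held 1 each and Ctsa and Mcoln1 held 2 each.

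Depth was 22182627 to 64231716 reads per library, and values are normalised counts, which are whole reads divided by 1 factor per library. In CSN, 3 of 13 Sod1G86R libraries were deeper than every wild-type library, and 4 of 16 wild-type libraries were shallower than every Sod1G86R library. At 90 days all 4 Sod1G86R CSN libraries were deeper than all 4 wild-type CSN libraries. The part of depth in the differences between genotypes was not tested. Replicates are libraries that the labels list as separate samples of numbered animals. Sod1, the gene of the transgene, separated the genotypes in every library: it lay at 80216 to 172179 in Sod1G86R CSN, against 1806 to 4562 in wild-type CSN, and at 38567 to 155479 in Sod1G86R control cells, against 1611 to 4244 in wild-type control cells. All 6 listed markers of CSN were higher in CSN than in control cells in both genotypes, and all 14 microglial markers were lower. The library kit does not keep the strand. By gene start and end, 16 members overlap a gene on the other strand, among them Ppt1 with Cap1, Ctsb with Fdft1 and Ctsa with Pltp. Reads from any stretch where exons of both genes overlap cannot be told apart, and the extent of such stretches was not measured.

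Levels between genes were compared as normalised counts per kilobase of exon. Atp6v0b, a proteolipid of the rotor ring, was the most abundant of the 42 in all 4 combinations of cell type and genotype. It averaged 15093 ± 3952 per kilobase in Sod1G86R CSN (SD, n = 13), against 9882 ± 2117 in wild-type CSN (SD, n = 16). In Sod1G86R CSN it was followed by Atp6v1g2 (13225 ± 2592), Atp6ap2 (12376 ± 3808) and Atp6v1f (12049 ± 2576), a run in which each neighbour lay within 1 SD of the next. Psap, which encodes the precursor of the saposins that assist lipid breakdown, was the first gene outside the pump, at 9459 ± 2112 per kilobase in Sod1G86R CSN, against 7066 ± 1678 in wild-type CSN. The lower end of the order in Sod1G86R CSN held Gusb, Npc1, Cln3, Ctsc and last Tfeb, at 13.6 ± 7.99 per kilobase, and Tfeb was also last in wild-type CSN, at 18.7 ± 13.6.

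Control cells had a different order. Ctss, cathepsin S, a protease abundant in microglia, stood at 14941 ± 6891 per kilobase in Sod1G86R control cells and 19751 ± 15993 in wild-type control cells (SD, n = 14 each), next below Atp6v0b in both. In CSN the same gene averaged 480 ± 517 per kilobase in Sod1G86R and 995 ± 912 in wild type. The large SDs of Ctss, Lamp1 and Ctsd in wild-type control cells, at 15993, 8375 and 10840 per kilobase, describe a wide spread between libraries of that group.

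In CSN, 15 of the 16 pump genes were higher in Sod1G86R than in wild type and none was lower. Across the whole table, 12.8% of 19093 genes were higher and 6.31% lower in the same comparison, which averaged the difference over the 4 ages with equal weight (limma on log2 of the value plus a pseudocount of 34.6, Benjamini-Hochberg adjusted p under 0.05 over all genes). The median log2 fold change was 0.64 over the pump genes and -0.05 over all genes. Of the 26 other members, 13 were higher, 1 was lower and 12 did not pass, with a median of 0.32. In each library the mean log2 level of the pump genes exceeded that of the other members by 2.79 to 3.40 in Sod1G86R CSN (median 3.2) and by 2.11 to 3.09 in wild-type CSN (median 2.70). The groups overlapped, with 8 of 13 Sod1G86R libraries above the highest wild-type library.

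**Figure D1:**
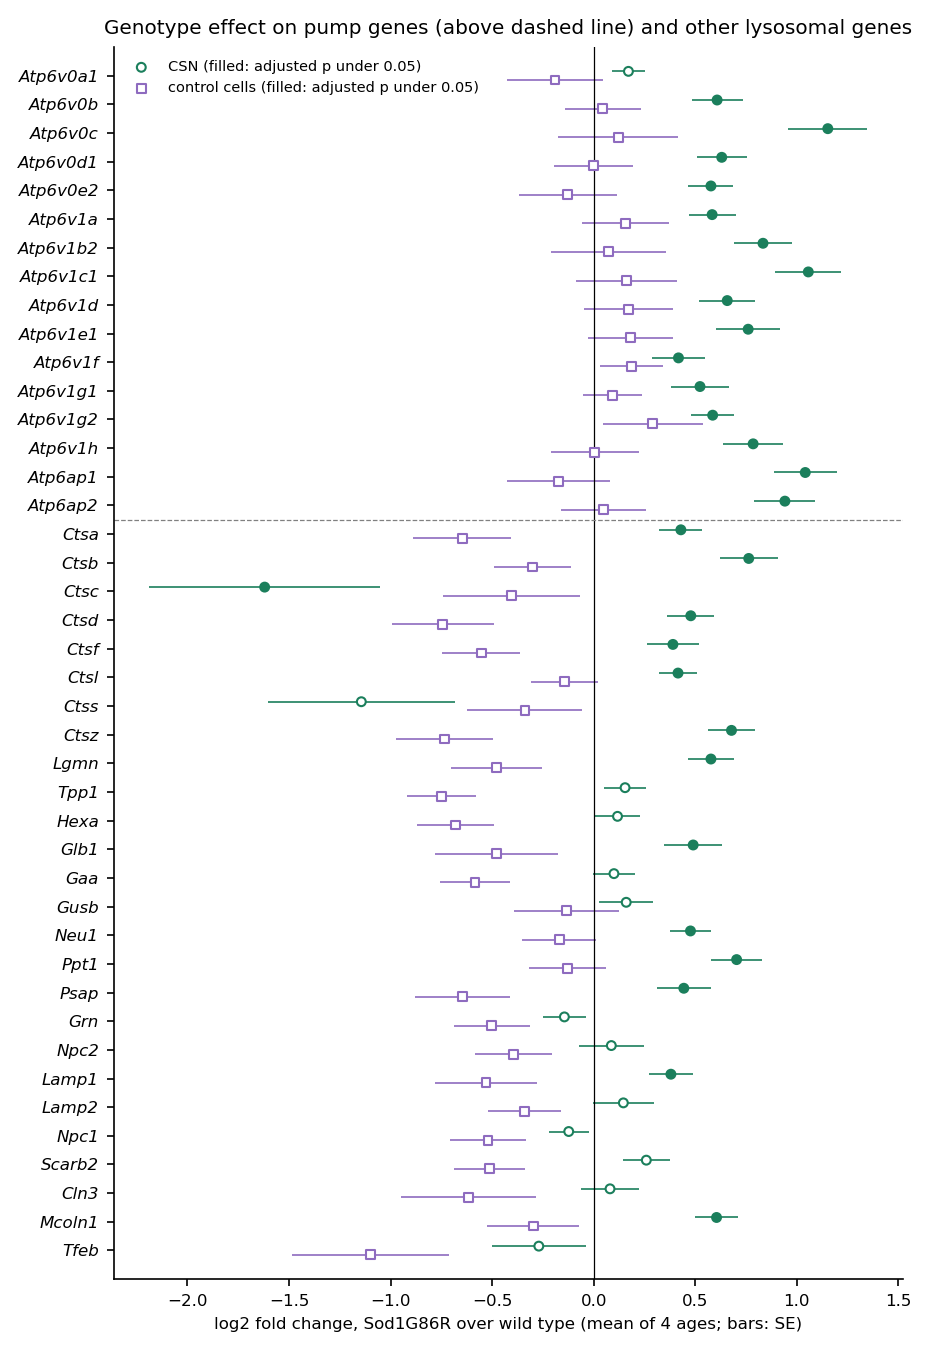
Log2 fold change of each of the 42 genes, Sod1G86R over wild type, as the mean of 4 ages in CSN (circles) and in control cells (squares), with bars for 1 SE. Filled symbols passed an adjusted p of 0.05 in limma: 29 of 42 genes in CSN and 0 in control cells.

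Library composition also differed between the genotypes. Reads of the mitochondrial chromosome made up 3.26% to 10.6% of Sod1G86R CSN libraries (median 5.47%) and 5.68% to 18.1% of wild-type CSN libraries (median 9.36%), a difference of -3.51 percentage points (two-sided permutation test within ages, 100000 permutations, p = 0.00047, adjusted p = 0.00141 over 6 tests). Genes detected, at a normalised count of 34.6 or more, numbered 14663 to 16474 in Sod1G86R CSN and 15441 to 17066 in wild-type CSN (difference -734, permutation p = 0.00042, adjusted p = 0.00141). Once the mitochondrial share entered the fit, 0 of the 42 members passed in limma, the median log2 fold change was 0.34 for the pump and 0.13 for the others, and 7 genes of the whole table (0.0367%) were higher and 18 (0.0943%) lower. Detected genes in its place gave 0 members as well, with medians of 0.24 and 0.09 and 5 genes higher and 15 lower in the whole table. Neuronal markers moved too: 3 of 6 CSN markers rose (Diaph3, Ldb2 and Crym; median of the 6 0.27), as did 1 of 5 pan-neuronal markers (Snap25, log2 fold change 0.67). How much of the members' change these measures account for was not tested, and they cannot be told apart from genotype in this design.

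**Figure D2:**
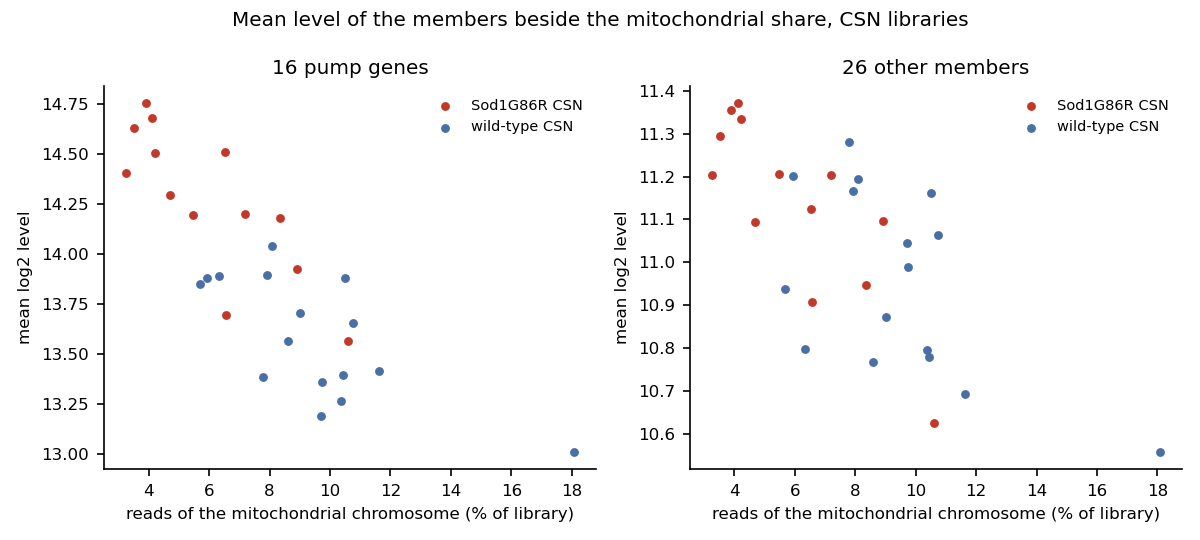
Mean log2 level of the 16 pump genes (left) and of the 26 other members (right) against the percentage of reads from the mitochondrial chromosome, 1 point per CSN library. The 7 Sod1G86R libraries below the lowest wild-type share of 5.68% hold most of the high pump levels. Libraries of both genotypes with larger shares mostly lie lower. The highest wild-type pump mean is 14.04. Sod1G86R replicate 13 of 105 days lies above it, at 14.51 with a share of 6.54%. So do Sod1G86R replicate 7 of 60 days (14.20 at 7.19%) and Sod1G86R replicate 3 of 30 days (14.18 at 8.35%).

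In the V0 sector, 4 of 5 genes rose. Atp6v0c, the proteolipid that forms most of the rotor ring (ENSMUSG00000024121, chr17:24163866-24169702 of GRCm38, minus strand), had a lowest, median and highest level of 3504, 6613 and 10997 in Sod1G86R CSN, against 1559, 2773 and 4975 in wild-type CSN (13 and 16 libraries, as for each gene below). All 13 Sod1G86R libraries lay above the wild-type mean and 9 lay above every wild-type library. The log2 fold change was 1.15 (SE 0.19, 2.22-fold, adjusted p = 0.000351), the largest increase among the 42 genes. The processed pseudogene Atp6v0c-ps2 moved the same way, at 1585, 3262 and 6517 in Sod1G86R CSN, against 659, 1593 and 2508 in wild-type CSN (log2 fold change 0.95, SE 0.20, adjusted p = 0.00159), so the division of reads between gene and pseudogene is uncertain.

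Atp6v0b reached 17765, 32500 and 44520 in Sod1G86R CSN, against 15161, 18257 and 28120 in wild-type CSN, with 8 of 13 libraries above every wild-type one (1.52-fold, adjusted p = 0.00146). Atp6v0d1, which joins the central stalk to the ring, rose 1.55-fold (adjusted p = 0.000866) and Atp6v0e2 1.49-fold (adjusted p = 0.000793). Atp6v0a1, the a-subunit isoform of neurons that forms the path of protons through the membrane, was the only pump gene that did not pass, at 4415, 5793 and 6924 in Sod1G86R CSN, against 4231, 5178 and 6128 in wild-type CSN (log2 fold change 0.17, SE 0.08, adjusted p = 0.131). Its value was -0.06 with quantile normalisation, so its direction depends on the scaling.

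All 9 V1 genes rose, by 0.42 to 1.06 on the log2 scale with a median of 0.66. Atp6v1c1, the C subunit that takes part in the regulated assembly of V1 with V0, had a lowest, median and highest level of 10267, 25043 and 44645 in Sod1G86R CSN, against 6965, 10411 and 15648 in wild-type CSN. Of the 13 Sod1G86R libraries, 11 lay above every wild-type library (log2 fold change 1.06, SE 0.16, 2.08-fold, adjusted p = 0.00017). The catalytic head is built from A and B subunits. Atp6v1a reached 24559, 40864 and 57753 in Sod1G86R CSN, against 19250, 27865 and 36785 in wild-type CSN (1.5-fold, adjusted p = 0.00106), and Atp6v1b2 reached 22310, 44339 and 85293, against 17922, 23850 and 38525 (1.78-fold, adjusted p = 0.000351). In both genes 8 or more Sod1G86R libraries exceeded the wild-type range.

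The stalks of V1 moved as well. Among the 2 G subunits of the peripheral stalk, the brain form Atp6v1g2 lay at 21390, 33976 and 43347 in Sod1G86R CSN and at 14609, 22530 and 27894 in wild-type CSN, with 11 of 13 libraries above every wild-type one (1.5-fold, adjusted p = 0.000538). The widely expressed form Atp6v1g1 lay at 7664, 9764 and 15186, against 4485, 7695 and 12471, with 4 libraries above the wild-type range (1.44-fold, adjusted p = 0.0102). Atp6v1h, a regulatory subunit, rose 1.72-fold (adjusted p = 0.000662), and the E subunit Atp6v1e1 1.7-fold (adjusted p = 0.00139). The rotor subunits Atp6v1d and Atp6v1f rose 1.58-fold and 1.34-fold (adjusted p = 0.00171 and 0.0266), the smallest increase in V1 being that of Atp6v1f. Atp6v1f no longer passed without Sod1G86R replicate 13 of 105 days or replicate 6 of 30 days (adjusted p up to 0.113), and Atp6v1g1 without the first of these (adjusted p = 0.0543).

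Both accessory genes rose by about as much as the leading subunits. Atp6ap1, which encodes the accessory subunit Ac45 (chrX:74297097-74304721), had 9198, 20485 and 36459 in Sod1G86R CSN, against 6284, 9757 and 14078 in wild-type CSN. Only 2 Sod1G86R libraries lay within the wild-type range (log2 fold change 1.04, SE 0.16, 2.06-fold, adjusted p = 0.000143, the lowest among the 42 genes). Atp6ap2, also known as the prorenin receptor (chrX:12587801-12617049), had 15697, 33227 and 47148, against 11022, 17618 and 26625, with 9 libraries above the wild-type range (0.94, SE 0.15, 1.92-fold, adjusted p = 0.00023).

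**Figure D3:**
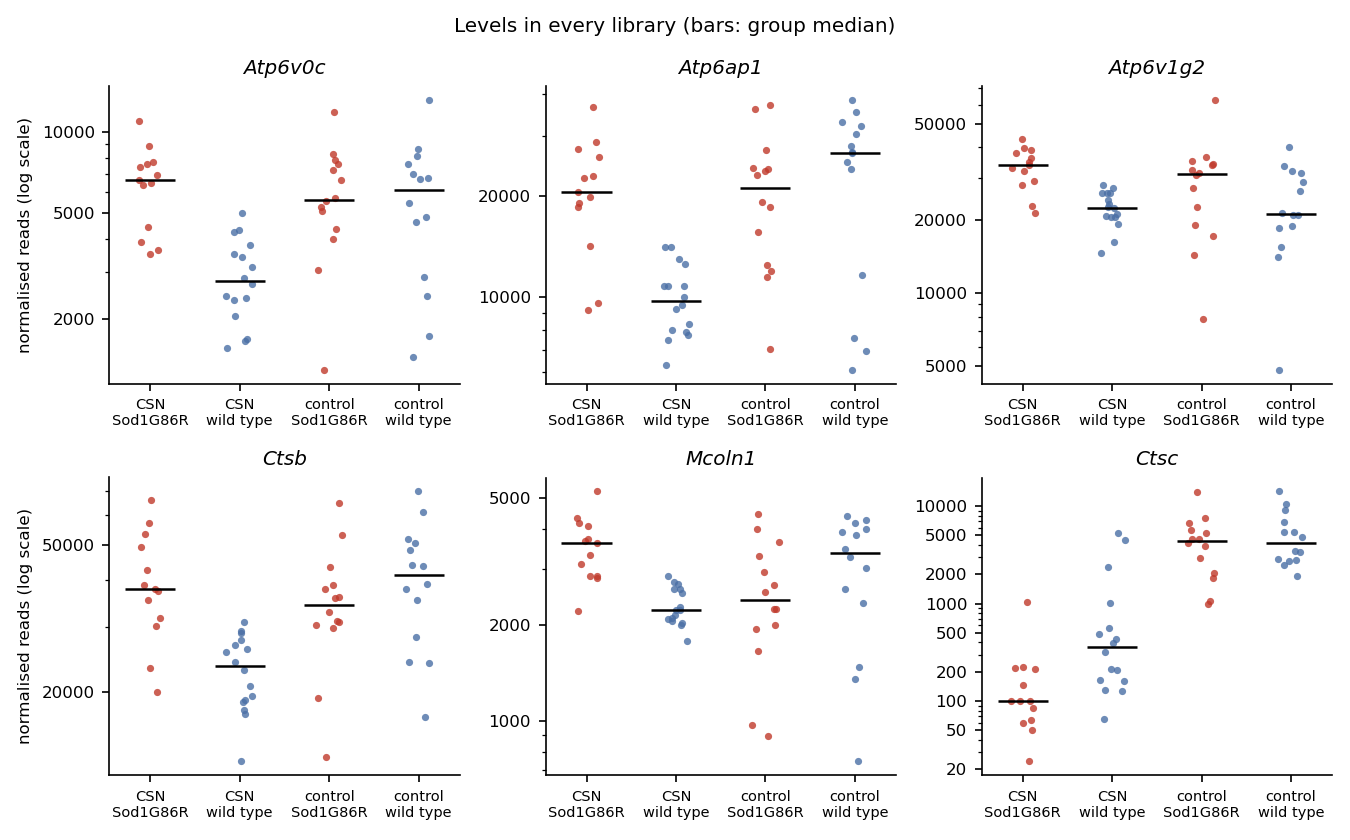
Normalised reads of 6 genes in every library on log axes, with 1 point per library and a bar at the group median. In CSN the Sod1G86R medians of Atp6v0c, Atp6ap1, Atp6v1g2, Ctsb and Mcoln1 lie above the wild-type medians, that of Ctsc lies below, and the control-cell groups overlap throughout.

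Of the 10 proteases, 7 rose and 1 fell. Ctsb, cathepsin B, an abundant cysteine protease (chr14:63122462-63145923), lay at 19978, 37929 and 65966 in Sod1G86R CSN and at 12941, 23493 and 30922 in wild-type CSN, with 10 of 13 libraries above every wild-type one (log2 fold change 0.76, SE 0.14, 1.7-fold, adjusted p = 0.000611). Ctsd, the main aspartic protease, lay at 6979, 11419 and 16460, against 5302, 8033 and 13457, and 2 libraries exceeded the wild-type range (0.48, SE 0.11, 1.39-fold, adjusted p = 0.00462). The ranges of Ctsd overlapped more than those of Ctsb. Ctsz (1.6-fold, adjusted p = 0.000351), Lgmn, the asparaginyl endopeptidase (1.49-fold, adjusted p = 0.00103), Ctsl (1.33-fold, adjusted p = 0.00339), Ctsa, the protective protein of neuraminidase and beta-galactosidase (1.35-fold, adjusted p = 0.00541), and Ctsf (1.31-fold, adjusted p = 0.0318) also rose. Tpp1, a tripeptidyl peptidase, did not pass (1.11-fold, adjusted p = 0.293). Ctsf no longer passed in 9 of the 29 fits that each left out 1 library.

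Cathepsins C and S stood apart from the other proteases. Ctsc, which activates serine proteases of immune cells, lay at 24.0, 100 and 1047 in Sod1G86R CSN and at 65.8, 359 and 5269 in wild-type CSN, so the groups overlapped while 4 Sod1G86R libraries lay below every wild-type one (log2 fold change -1.62, SE 0.57, adjusted p = 0.0487). This call was lost in 20 of the 29 fits that each left out 1 library. Ctss lay at 66.9, 399 and 2752 in Sod1G86R CSN and at 367, 793 and 4346 in wild-type CSN and did not pass (-1.14, SE 0.46, adjusted p = 0.0833). Microglial markers moved in the same direction: all 14 had log2 fold changes below 0 (median -0.82), 3 passed as lower (Aif1, Cx3cr1 and Gpr34), and their summed level was 1458 to 18159 in Sod1G86R CSN (median 3611) and 3575 to 20373 in wild-type CSN (median 7678). Of these markers, Fcrls was at 0 in 1 Sod1G86R library. The mean log2 level of the 14 markers differed by -0.88 between the genotypes (permutation test within ages, p = 0.0088, adjusted p = 0.0176 over 6 tests). With the mean of these markers as a covariate, Ctsc was at -0.65 (adjusted p = 0.453) and Ctss at 0.13 (adjusted p = 0.676), while 14 pump genes and 10 others still passed as higher, against 8% of all genes higher and 2.06% lower.

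Among the 6 other hydrolases, 3 rose. Ppt1, a thioesterase that removes fatty acids from proteins, lay at 5084, 9443 and 14044 in Sod1G86R CSN and at 4450, 5520 and 7504 in wild-type CSN, with 10 libraries above the wild-type range (log2 fold change 0.70, SE 0.12, 1.63-fold, adjusted p = 0.00041). Neu1, the lysosomal sialidase, rose 1.39-fold (adjusted p = 0.00167, 9 libraries above the wild-type range) and Glb1, beta-galactosidase, 1.4-fold (adjusted p = 0.0157, 2 libraries above it). Hexa, Gaa and Gusb, which cleave hexosamines, glycogen and glucuronides, were at log2 fold changes of 0.12, 0.10 and 0.16 and did not pass (adjusted p = 0.464, 0.508 and 0.396). Hexa and Gaa turned to values below 0 with the mitochondrial share or detected genes as a covariate.

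Of the 3 luminal proteins without a protease or glycosidase role in the list, Psap alone rose, to 18803, 25817 and 38510 in Sod1G86R CSN, against 9827, 19248 and 27585 in wild-type CSN (1.36-fold, adjusted p = 0.02), and 3 of 13 libraries lay above the wild-type range. Its call was lost without Sod1G86R replicate 13 of 105 days or replicate 6 of 30 days (adjusted p up to 0.0569). Grn, the progranulin gene, was at -0.14 (SE 0.10, adjusted p = 0.323), and Npc2, a carrier of cholesterol, at 0.09 (SE 0.16, adjusted p = 0.721).

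In the membrane group 2 of 6 genes rose. Mcoln1, which encodes the calcium channel TRPML1, lay at 2215, 3622 and 5272 in Sod1G86R CSN and at 1783, 2230 and 2856 in wild-type CSN, with 10 of 13 libraries above every wild-type one (log2 fold change 0.61, SE 0.10, 1.52-fold, adjusted p = 0.000351). Lamp1, a major glycoprotein of the lysosomal membrane, lay at 6163, 10376 and 13881, against 5220, 7508 and 11010, with 6 libraries above the wild-type range (1.3-fold, adjusted p = 0.0149). Lamp2, its relative with a role in chaperone-mediated autophagy, was at 1.11-fold (adjusted p = 0.499). Scarb2, the receptor that carries glucocerebrosidase, Npc1, a cholesterol exporter, and Cln3 did not pass either (log2 fold changes 0.26, -0.12 and 0.08).

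Tfeb was low in every CSN library, at 18.6, 71.5 and 195 in Sod1G86R and 37.7, 90.7 and 340 in wild type. The groups overlapped almost fully (log2 fold change -0.27, SE 0.23, adjusted p = 0.408), and these values lie close to the pseudocount.

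At single ages the pump genes kept their direction while few calls could be made. All 16 had log2 fold changes above 0 at each of the 4 ages in CSN with the deposited scaling, with medians of 0.77, 0.49, 0.76 and 0.69 at 30, 60, 90 and 105 days. Of all 19093 genes, 9038, 9226, 9278 and 9001 were above 0 at these ages. For the other members the medians were 0.45, 0.25, 0.52 and 0.12, and 16 of 26 were above 0 at each age. No member passed at 30 days (0.0105% of genes higher and 0.00524% lower), at 60 days (0.0105% and 0.021%) or at 105 days (0.0105% and 0.0105%, with 2 Sod1G86R libraries). At an unadjusted p under 0.05 there were 26, 16 and 12 of 42 members at these ages in limma, against 13.5%, 7.86% and 8.02% of all genes. edgeR on the recovered reads called 0 at each of them, and DESeq2 called 6 at 30 days and 0 at the others.

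At 90 days 14 of 42 members passed as higher and none as lower, against 3.48% of all genes higher and 1.38% lower. These were 7 pump genes (Atp6v0b, Atp6v0c, Atp6v0d1, Atp6v1b2, Atp6v1c1, Atp6ap1 and Atp6ap2) and 7 others (Ctsb, Ctsl, Ctsz, Lgmn, Ppt1, Lamp1 and Mcoln1). Atp6v1c1 measured 44645, 30747, 39733 and 16009 in the 4 Sod1G86R libraries, against 15470, 15278, 8556 and 9260 in the 4 wild-type libraries (log2 fold change 1.38, adjusted p = 0.0231). Atp6v0c measured 7395, 7622, 6470 and 4440, against 3426, 4311, 1697 and 1559 (1.33, adjusted p = 0.0347). Ctsb measured 65966, 49189, 57307 and 31600, against 30922, 26778, 22908 and 18710 (1.01, adjusted p = 0.029). None of these 3 genes overlapped between genotypes at this age. They were picked among the genes that passed, and the share of all genes without overlap was not counted, so the separation adds nothing to the test. Depth also separated the genotypes at this age, as given above. Replicate 8 was the lowest Sod1G86R library for all 3 genes and had a mitochondrial share of 8.92%, against 3.52% to 4.21% in the other 3 Sod1G86R libraries. Without it 22 members passed, and 0 passed without any 1 of the Sod1G86R replicates 3, 5 and 6 or the wild-type replicates 7 and 9. A test of whether the genotype effect differed between ages, added after these values were seen, called 0 genes in the whole table (limma F test, 3 members at an unadjusted p under 0.05).

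**Figure D4:**
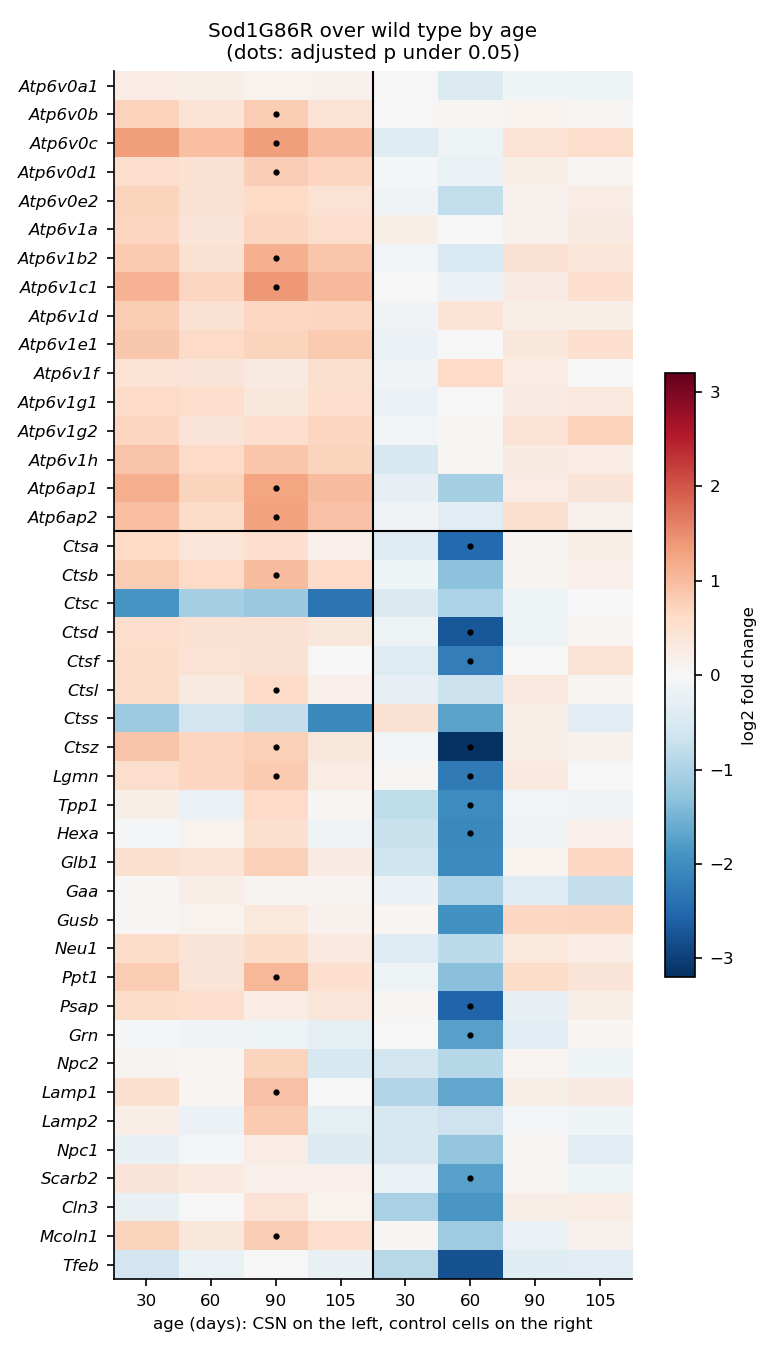
Log2 fold change, Sod1G86R over wild type, of each member at 30, 60, 90 and 105 days in CSN (left 4 columns) and control cells (right 4 columns), with dots where the adjusted p was under 0.05. The CSN columns show 14 dots at 90 days, all for increases, and the control columns show 10 at 60 days, all for decreases outside the pump.

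The step between the pump and the other members could also be read age by age in single libraries. Its mean was 3.21, 2.98, 3.16 and 3.29 log2 units in Sod1G86R CSN at 30, 60, 90 and 105 days, and 2.61, 2.61, 2.78 and 2.53 in wild-type CSN. The genotypes did not overlap at 30 and 105 days and overlapped at 60 and 90 days. With 3 and 4 libraries at 30 days and 2 and 4 at 105 days, such separation can arise by chance. The step weights each gene equally. This includes Tfeb, near the pseudocount, and Ctsc and Ctss, which had negative log2 fold changes like the microglial markers. A step without these genes was not computed. Mitochondrial shares averaged 5.91%, 6.90%, 5.19% and 5.62% in Sod1G86R CSN, against 9.31%, 11.9%, 8.35% and 8.10% in wild-type CSN at the same ages.

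**Figure D5:**
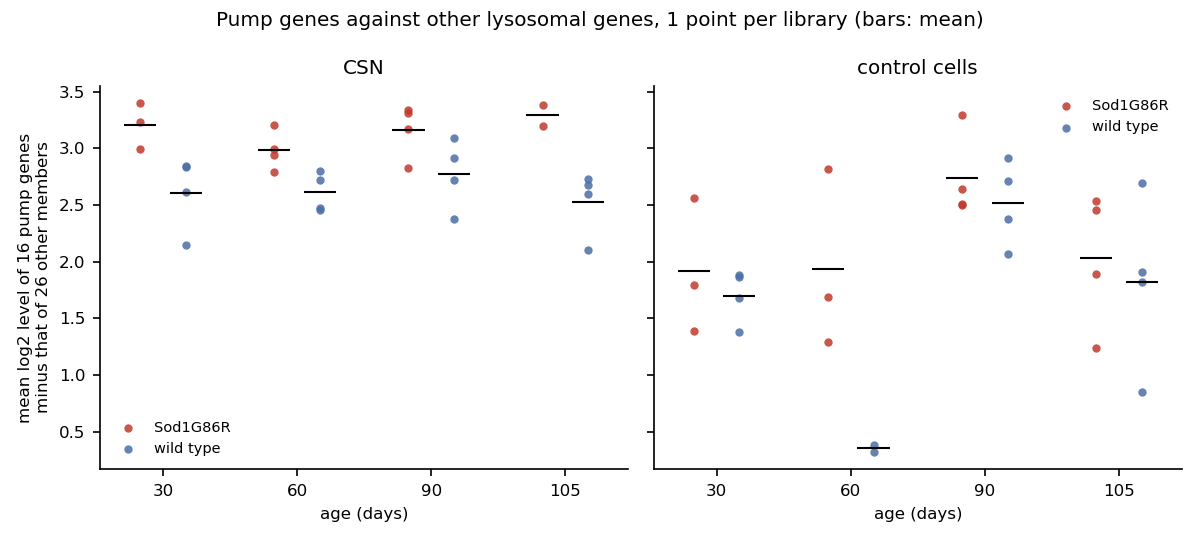
Mean log2 level of the 16 pump genes minus that of the 26 other members, 1 point per library, by age, for CSN (left) and control cells (right), with bars at the mean. In CSN the Sod1G86R means lie above the wild-type means at all 4 ages, and in control cells the 2 wild-type libraries of 60 days lie lowest, at 0.32 and 0.38.

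In control cells no member passed between Sod1G86R and wild type over the mean of 4 ages, where 0.0143% of 20944 genes were higher and 0.0573% lower (limma). At an unadjusted p under 0.05 there were 0 pump genes and 15 of the 26 others, against 11.7% of all genes, and on the recovered reads edgeR called 0 members and DESeq2 1, as lower. The pump genes had a median log2 fold change of 0.08, with 12 of 16 above 0, while all 26 others were below 0 with a median of -0.51. Of all 20944 genes, 10311 were above 0. Cell type markers also differed in level in the same comparison: all 6 GABAergic markers were above 0 (median 1.33) with Gad2 passing as higher, while the medians were -0.71 for astrocyte, -0.96 for oligodendrocyte precursor and -0.49 for microglial markers with none passing. Their part in the values of the members was not tested. The lowest adjusted p was that of Tpp1 (log2 fold change -0.75, SE 0.17, adjusted p = 0.0711). Atp6v0c lay at 1295, 5607 and 11924 in Sod1G86R control cells, against 1450, 6075 and 13247 in wild-type control cells, and Ctsb at 13303, 34345 and 64959, against 17116, 41498 and 69877. Both genes overlapped between genotypes over nearly the whole range. Without the 60-day libraries the median of the others was -0.06. Tfeb lay at 3.82, 61.9 and 384 in Sod1G86R control cells and at 12.8, 155 and 1104 in wild-type control cells, without passing (-1.10, adjusted p = 0.282).

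At 60 days the median of the others in control cells was -1.75. There 10 of the 26 other members fell and none of the pump genes passed, against 1.29% of all genes lower and 0.105% higher, with 3 Sod1G86R libraries and 2 wild-type libraries. The 10 were Ctsa, Ctsd, Ctsf, Ctsz, Lgmn, Tpp1, Hexa, Psap, Grn and Scarb2. Ctsz, a carboxypeptidase, measured 1395, 2500 and 1417 in Sod1G86R libraries, against 16915 and 14291 in wild-type libraries (log2 fold change -3.16, adjusted p = 0.0135). Ctsd measured 10779, 16694 and 9892, against 98941 and 63264 (-2.70, adjusted p = 0.0242). The genotypes did not overlap for either gene, but both were picked among the 10 that passed. With 3 and 2 libraries such separation is easily met, and the share of all genes that show it was not counted. For the pump gene Atp6v0c the values were 1295, 4350 and 7874 in Sod1G86R libraries and 5450 and 2883 in wild-type libraries, which overlapped. A test of whether the genotype effect differed between ages in control cells called 0 genes (limma F test, 14 members at an unadjusted p under 0.05, adjusted p from 0.304 for members), so a difference between 60 days and the other ages is not shown.

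The summed level of the 14 microglial markers in those libraries was 87289 to 110425 in Sod1G86R and 299029 and 339507 in wild type, the highest values of any library. Other measures separated the same libraries: the mean log2 level of astrocyte markers was 10.1 to 11.2 in Sod1G86R and 12.52 and 13.03 in wild type, and that of oligodendrocyte markers 12.6 to 15.3 in Sod1G86R and 15.6 and 15.9 in wild type. The mitochondrial share was 1.77% to 2.47% in Sod1G86R and 0.811% and 1.04% in wild type, and detected genes numbered 16756 to 17874 in Sod1G86R and 15925 and 16433 in wild type. With the microglial markers as a covariate 0 members passed at that age, and without either wild-type library 0 passed as well, in fits that assume that the remaining one varies like the other groups. With the mitochondrial share in the fit 0 passed and with detected genes 1. Quantile normalisation, which moved the median of all genes from -0.05 to 0.10 in this comparison, left 6. The part of these measures in the fall of the 10 genes was not tested. At 30, 90 and 105 days no member passed in control cells (0.00955% of genes higher and 0% lower at each), with 1, 0 and 1 members at an unadjusted p under 0.05 in limma (5.25%, 2.81% and 4.45% of all genes) and 0 by edgeR and DESeq2. The medians of the others there were -0.34, 0.06 and 0.10.

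The difference between the genotype effects of the cell types was tested directly. The effect was larger in CSN than in control cells for 17 of 42 members and smaller for none, against 3.84% of 22032 genes larger and 2.42% smaller (limma, joint fit). In the pump it passed for both accessory genes, Atp6ap1 (log2 difference 1.21, adjusted p = 0.022) and Atp6ap2 (0.89, adjusted p = 0.0368), and for none of the 14 subunits of V0 and V1. Outside the pump it passed for 15 of 26, led in size by Ctsz (1.41) and Ctsd (1.22). The median difference was 0.60 for the pump and 0.81 for the others. Without the 60-day libraries no gene in the whole table passed, and the medians were 0.62 and 0.42. Without wild-type control replicate 1 of 60 days 6 members passed, and 9 passed without Sod1G86R control replicate 3 of 60 days, Sod1G86R CSN replicate 13 of 105 days or Sod1G86R CSN replicate 6 of 30 days. The mitochondrial share or detected genes as a covariate also left 0 genes of the table larger and 0 members.

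Cell types were then compared within each genotype, with the same libraries as above. In wild-type mice 22 of the 26 other members had lower levels in CSN than control cells and 1 was higher, against 29.5% of 22032 genes lower and 26.8% higher. All 10 proteases were lower, led by Ctss (log2 fold change -4.49, adjusted p = 1.04e-13) and Ctsc (-3.39, adjusted p = 3.78e-08), followed by the membrane protein Lamp2 (-2.65, adjusted p = 7.2e-19). Once the mitochondrial share entered the fit, Ctsa, Ctsb and Ctsd turned to 0.32, 0.91 and 0.19, of which Ctsb passed as higher (adjusted p = 0.0316). Gaa, the acid glucosidase of glycogen breakdown, was the 1 higher gene, with 6358, 8031 and 12077 in wild-type CSN, against 2504, 5306 and 7330 in wild-type control cells (0.79, adjusted p = 3.31e-06). The pump was split: Atp6v0a1 and Atp6v1a were higher in CSN (0.90, adjusted p = 1.79e-05, and 0.49, adjusted p = 0.0119), 7 genes were lower, and 7 did not pass. Atp6v0a1 lay at 4231, 5178 and 6128 in wild-type CSN, against 1198, 2512 and 5743 in wild-type control cells. Of its sector partners Atp6v0b was at -0.95 and Atp6v0c at -0.78, and Atp6v0c turned to higher in CSN with the mitochondrial share in the fit.

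Among Sod1G86R mice 5 pump genes were higher in CSN than in control cells and 1 was lower, against 24.9% of genes higher and 30.6% lower. The 5 were Atp6v0a1 (log2 fold change 1.26), Atp6v1a (0.92), Atp6v0d1 (0.66), Atp6v1h (0.59) and Atp6ap2 (0.44), and the 1 lower gene was Atp6v0b (-0.38, adjusted p = 0.0442). The median over the pump was 0.35 in Sod1G86R and -0.38 in wild type. Of the other members 4 were higher (Gaa, Psap, Glb1 and Mcoln1) and 13 lower, among them Ctss (-5.30) and Ctsc (-4.60). Mitochondrial shares were 3.26% to 10.6% in Sod1G86R CSN, against 1.01% to 3.78% in Sod1G86R control cells, and 5.68% to 18.1% in wild-type CSN, against 0.811% to 2.55% in wild-type control cells. With this share in the fit 12 members were higher and 2 lower in wild type, against 9.83% of all genes higher and 13.7% lower, and 22 members were higher and 4 lower in Sod1G86R, against 21% and 25.6%. Its part in the difference between the cell types cannot be told apart from cell type.

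Age alone was compared between 105 and 30 days. In wild-type CSN no gene of 19093 passed, with 1187 genes (6.22%) and 1 member at an unadjusted p under 0.05 in limma, edgeR and DESeq2 called 0 members, and the medians were 0.15 for the pump and 0.17 for the other members. Ctsz had the lowest p of the members (log2 fold change 0.73, SE 0.22, adjusted p = 0.517). In Sod1G86R CSN no member passed by limma (1 at an unadjusted p under 0.05, against 3.49% of all genes), edgeR or DESeq2, and the medians were 0.08 and -0.05. In wild-type control cells no member passed by any of the 3 tools, with 13 of 42 at an unadjusted p under 0.05 in limma against 12.5% of all genes, medians of -0.46 and -0.61, and the lowest adjusted p at Lamp1 (log2 fold change -1.87, SE 0.46, adjusted p = 0.0941). Without wild-type replicate 12 of 105 days 6 members were lower there. In Sod1G86R control cells no member passed by limma (1 at an unadjusted p under 0.05, against 7.78% of all genes), edgeR or DESeq2, and the medians were -0.09 and -0.26.

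Further genes of the pathway, taken from lists that leave out the 42 members, were counted in CSN between Sod1G86R and wild type, where 12.8% of all genes tested were higher. Of 14 other genes tested that encode subunits, assembly factors or regulators of the V-ATPase, 4 rose (Rogdi, Tmem199, Vma21 and Oxr1) with a median of 0.18. Rogdi, a relative of a yeast assembly factor of the pump, was at 0.76 (adjusted p = 0.00046), and Vma21, an assembly chaperone, at 0.65 (adjusted p = 0.0013). Of 31 further hydrolases and activators 4 rose (Fuca1, Smpd1, Plbd2 and Gla), near the share of all genes, with a median of 0.09. Membrane and sorting genes gave 6 of 26, among them Laptm4b (0.90, adjusted p = 0.00027), Ostm1 (0.67) and the retromer gene Vps35 (0.59), with a median of 0.08. The list of TFEB relatives and genes that dock mTORC1 at the lysosome gave 7 of 17, with the GTPase genes Rragb (0.82), Rraga (0.67) and Rheb (0.67) among them and a median of 0.29. None of these 4 lists had a gene that fell, and the medians stand beside -0.05 for all genes.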

How the data were processed

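The deposited table holds normalised counts for 45337 genes in 57 libraries. Its values, a signal unit per the file headers and values, are whole reads divided by 1 factor per library (100% of values came out whole within 0.001), and how the authors set the factors is not stated there. Per the series' design text, the SMART-Seq kit version 4 (11 cycles) gave the cDNA and Nextera XT (12 cycles) the libraries, sequenced on a HiSeq 4000 as paired 50-base reads, and counted per gene with STAR 2.7.0 on GRCm38 and Ensembl 87. edgeR and mm10 are named in the submitters' processing notes without a role.

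Values were analysed as log2(value + 34.6), the pseudocount being 1 ppm of the median column total, so fold changes of low genes are understated. Genes that reached 34.6 in 3 or more libraries were tested with limma 3.58.1 (R 4.3.3; trended, robust) on group means per cell type, genotype and age, separately for CSN (29 libraries, 19093 genes) and control cells (28 libraries, 20944 genes), and jointly (57 libraries, 22032 genes) for differences between cell types. Adjusted p-values are Benjamini-Hochberg over all genes of a fit. The fit was also run on simulated counts, drawn without age effects and without a difference in mitochondrial share or cell composition between genotypes. That run cannot show how the fit behaves where such differences exist. edgeR 4.0.16 and DESeq2 1.42.0 ran on the recovered reads, 22182627 to 64231716 per library, as alternatives.

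Replicate numbers were checked for pairing. Libraries of the same animal in the 2 cell types had a median correlation of deviations of 0.0385 (25 pairs), and the labels give them the same animal number, so the animal was the block in the paired alternative of the joint fit. Gene lengths came from GENCODE M21 and promoter windows from RefSeq. The 42 genes and all lists were chosen with earlier results of these data known. Lowest, median and highest values are given for some of the up to 8 members per direction with the smallest p, though not for Ctsz in CSN. They are also given for Atp6v0c, Atp6v1g1, Atp6v1g2, Ctsb, Ctsd, Ctss, Ctsc, Tfeb and Mcoln1, and for further members such as Atp6v0b, Atp6v1a, Lamp1 and Psap. Other alternatives were pseudocounts 4 times smaller and larger, no filter, other normalisations, covariates, and fits without 1 library or 1 age.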

Additional observations from a re-analysis of the deposited data

Results flagged for a closer look

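Among the 33 groups and measures of 4 to 10 libraries that were checked for a library far from its group, 1 stood out, where chance alone gives about 1 in 20. It was replicate 8 of Sod1G86R CSN at 90 days, with a mitochondrial share of 8.92%, against 3.52% to 4.21% in the other 3 libraries of that group.

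A difference between the genotype effects of the cell types, CSN minus control cells, passed the joint test for 17 members, each with a larger effect in CSN. For the accessory pump genes the log2 differences were 1.21 (Atp6ap1) and 0.89 (Atp6ap2). Among proteases the differences were 1.08 (Ctsa), 1.06 (Ctsb), 1.22 (Ctsd), 0.94 (Ctsf), 1.41 (Ctsz), 1.05 (Lgmn) and 0.90 (Tpp1). Other hydrolases gave 0.80 (Hexa), 0.68 (Gaa), 0.65 (Neu1) and 0.83 (Ppt1). Psap gave 1.09, and the membrane proteins gave 0.91 (Lamp1), 0.77 (Scarb2) and 0.90 (Mcoln1). None of the 17 passed without the 60-day libraries, where wild-type control cells had 2 libraries. The median difference was then 0.62 for the pump, against 0.60 with all ages, and 0.42 for the others, against 0.81 with all ages.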

How the results depend on the processing

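Counts of members called in CSN stayed at 28 higher under TMM, edgeR, DESeq2 and the replicate block, and the range without single libraries was 24 to 29 higher and 0 to 2 lower. The mitochondrial share as a covariate gave 0 higher and 0 lower in CSN, 0 at 90 days, 0 lower in control cells at 60 days, a larger effect in CSN for 0, and 12 higher and 2 lower between cell types in wild type and 22 and 4 in Sod1G86R. Detected genes as a covariate gave 0 and 0 in CSN, 0 at 90 days, 1 lower in control cells at 60 days, a larger effect for 0, and 3 higher between cell types in Sod1G86R. Quantile normalisation gave 0 lower in CSN, 7 at 90 days, 6 lower in control cells at 60 days and a larger effect for 2. Without the filter these were 0, 0, 4 and 9. DESeq2 gave 2 lower in CSN, 6 higher at 30 days, and 1 lower each in control cells and in the difference. The larger pseudocount gave 0 lower in CSN and 1 lower in control cells, and edgeR gave 6 lower in control cells at 60 days. Microglial markers as a covariate, chosen after seeing the data, gave 0 lower in CSN, 0 lower in control cells at 60 days and 2 lower between 105 and 30 days in wild-type control cells. Without the 60-day libraries 0 were lower in CSN and 0 had a larger effect in CSN, and without the 90-day libraries 0 were lower in CSN. Leaving out single libraries gave 0 to 1 lower in control cells, 6 to 25 for the difference, 0 to 10 lower in control cells at 60 days, 0 to 22 at 90 days in CSN, and 0 to 6 lower between 105 and 30 days in wild-type control cells. The cause of these changes was not tested.

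The replicate block (shared number within age in fits of 1 cell type, animal in the joint fit) gave 2 lower in CSN, Ctss joining at an adjusted p of 0.0394, and moved no other count by more than 1.5 times. Of the pairs with a shared number across genotypes, 5 of 9 in CSN (median 0.242) and 2 of 7 in control cells (median -0.0406) correlated above 0.1. The consensus correlation of the block fit was 0.269 in CSN and 0.0486 in control cells, and the main fits leave such a correlation out. The labels do not say what a shared number means across genotypes, so those numbers are not shown to pair the libraries.

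In comparisons of genotypes, and of genotype effects between cell types, the directions that turned were those of genes that did not pass. Between cell types, genes that had passed turned as well. Only some members were followed gene by gene through the alternatives between cell types, so others that had passed may have turned too. Among those followed, the genes were Atp6v0c, Ctsa, Ctsb, Ctsd and Lamp1 in wild type, and Hexa, Atp6v1h and Glb1 in Sod1G86R. In CSN, the mitochondrial share gave Hexa -0.075, Gaa -0.081, Npc2 -0.21, Lamp2 -0.069, Scarb2 -0.014, Cln3 -0.00073 and Tfeb 0.15, detected genes gave Hexa -0.061, Gaa -0.19, Npc2 -0.065 and Tfeb 0.21, quantile normalisation gave Atp6v0a1 -0.056, Tpp1 -0.017, Gaa -0.16 and Lamp2 -0.0011, the microglial markers gave Ctss 0.13, and the fit without 90-day libraries gave Hexa -0.014, Npc2 -0.12, Lamp2 -0.086 and Cln3 -0.047. In control cells, the mitochondrial share gave Ctsb 0.021, Ctsc 0.081 and Mcoln1 0.036, the microglial markers gave Ctsc 0.080 and Ctss 0.18, and the fit without 60-day libraries gave Ctsb 0.038 and Ctss 0.12. Without single libraries Atp6v0c ranged from -0.036 to 0.30, at -0.021 without Sod1G86R control replicate 7 of 60 days and lowest without wild-type control replicate 3 of 90 days. For the difference, Atp6v1g2 turned to -0.12, -0.17 and -0.079 with the mitochondrial share, detected genes and quantile normalisation. Between cell types in wild type, the mitochondrial share gave Atp6v0c 1.5, Ctsa 0.32, Ctsb 0.91, Ctsd 0.19, Lamp1 0.10 and Mcoln1 1.23, and Atp6v1g2 ranged from -0.037 to 0.19 without single libraries, lowest without wild-type control replicate 9 of 105 days. In Sod1G86R, the mitochondrial share gave Atp6v1g1 0.10, Ctsd 0.72 and Hexa 0.016, detected genes gave Atp6v0c -0.58, Atp6v1g2 -0.083, Atp6v1h -0.026, Ctsb -0.41 and Glb1 -0.16, and Tfeb turned to 0.18 with quantile normalisation and ranged from -0.32 to 0.013 without single libraries, at 0.013 without Sod1G86R control replicate 9 of 105 days and 0.0050 without replicate 4 of 30 days.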

Other observations

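Lysosomal genes outside the 42 members were also compared between the cell types for the genotype effect. In control cells no gene of the 4 further pathway lists passed between Sod1G86R and wild type in limma, with median log2 fold changes of -0.04 for other V-ATPase genes, -0.56 for other hydrolases and activators, -0.28 for membrane and sorting genes and 0.06 for TFEB relatives and genes that dock mTORC1. The effect was larger in CSN than in control cells for 0 of 16, 8 of 32, 6 of 26 and 1 of 18 genes of these lists, against 3.84% of all genes tested, in the same joint fit in which no gene passed without the 60-day libraries. In CSN, markers of other glial and vascular cells had medians below 0 as well, at -0.35 for 8 astrocyte markers, -0.88 for 8 oligodendrocyte markers (Ugt8a lower, log2 fold change -1.56) and -0.41 for 6 endothelial and mural markers. Their part in the values of the members was not tested.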
